A study of Mus musculus with 9 samples.

Results

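Embryonic stem cells that lose their self-renewal signals and aggregate in suspension form embryoid bodies, in which they pass through an epiblast-like stage and then give rise to primitive streak, germ layer and yolk sac cells. In mouse stem cells, leukemia inhibitory factor signals through STAT3 to keep the naive pluripotency network on, and the core factors Pou5f1, Nanog and Sox2 fall as cells commit. The product of Hnrnpll, a member of the hnRNP proteins that bind RNA, is known to regulate splicing in lymphocytes.

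The data compared here are polyA+ RNA-seq libraries of day 8 embryoid bodies from the Hnrnpll knockout lines G6 and H8 (genotype Hnrnpll-/-, 2 libraries) and of the day 0 embryonic stem cells of the same lines (2 libraries), which are 4 of the 9 libraries of the series and were chosen by their labels. The other libraries are day 4 bodies of the same lines (2 libraries) and wild-type cells at day 0, day 4 and day 8 (1 library each). Per the labels, stem cells of both genotypes grew in medium with leukemia inhibitory factor and 15% bovine serum of fetal origin, and hanging drops gave the bodies. The labels do not give how the gene was disrupted, the strain or sex of the cells, whether G6 and H8 are each 1 clone or their libraries are separate cultures, whether the wild-type cells are their parent, or whether the factor was present during body formation. The comparison gives the net change over the knockout course: which genes had been gained by day 8, which had been lost, and which had left their level at day 4 and returned.

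The day 0 knockout libraries stand apart in ways that, within the knockout, cannot be told apart from the day. They were the shallowest, at 54218051 and 61626609 total counts, against 113059196 to 184952442 in the other 7 libraries. Low counts (up to 40) fell on multiples of 4 in 43.5% and 42.6% of cases there, against 30.5% to 33.2% elsewhere, where equal frequency of all remainders would give 25%; the cause was not tested. The 2773 processed pseudogenes had a median of 0.203 and 0.211 CPM (counts scaled to library size) there, against 0.413 to 0.621 CPM elsewhere. Rn7s1, the RNA of the signal recognition particle, which carries no encoded polyA tail, was named after its values were seen. It was measured at 3.72 and 2.96 TPM (a level scaled to transcript length and library) at day 8 and 92.6 and 65.0 TPM at day 0. At day 4 it had 2.60 and 2.50 TPM, and in wild type 2.17, 0.942 and 3.23 TPM at day 0, day 4 and day 8. In depth, low counts and pseudogenes too, the wild-type library of day 0 lay among the other 7, at 113059196 counts, 33.0% and 0.566 CPM. The 5 stem cell markers Pou5f1, Nanog, Sox2, Zfp42 and Esrrb were all present and summed to 2613 and 2589 TPM at day 8 and 3917 and 3916 TPM at day 0, against 408.6 TPM in wild type at day 8. The part of these features in the net change was not tested.

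Hnrnpll (ENSMUSG00000024095, chromosome 17, 80029487 to 80062334, mm10) was detected in every knockout library. It was measured at 54.9 and 24.5 TPM in the stem cells of G6 and H8, at 61.2 and 38.6 TPM in the day 4 bodies and at 56.5 and 43.5 TPM in the day 8 bodies; pairs of values are given as G6 and H8 throughout. The days overlapped. Wild type had 77.1, 101 and 112 TPM at day 0, day 4 and day 8, above every knockout library. The net change of Hnrnpll in the knockout was not past the test (log2 0.37, SE 0.381, adjusted p = 0.579). A level per gene does not show whether this RNA encodes protein and is no check of the knockout itself. Hnrnpl, its close relative, fell in both lines and was measured at 357 and 316 TPM at day 8, against 585 and 512 TPM at day 0 (log2 -0.81, SE 0.132, adjusted p = 0.0221). Wild type had 321 TPM of Hnrnpl at day 8 and 389 TPM at day 0. The difference of its net change from that of wild type did not pass the test (log2 -0.34, adjusted p = 0.399). Of 48 splicing regulators and hnRNPs tested, 2 were gained, the epithelial regulator gene Esrp1 (log2 1.79, adjusted p = 0.0233) and the muscleblind gene Mbnl3 (log2 1.35, adjusted p = 0.0323), and 1, Hnrnpl, was lost. These are 4.2% and 2.1% of the list, against 5.92% gained and 1.97% lost among all genes tested.

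Of 24794 genes tested, 1469 were gained and 489 lost over the 8 days. A gene was called when its adjusted p was under 0.05 (edgeR quasi-likelihood test, Benjamini-Hochberg) and its change had 1 sign within G6 and within H8. Unless a block, an alternative or a difference from wild type is named, each adjusted p comes from that test over all 24794 genes, and log2 changes are day 8 minus day 0 unless stated. Nothing in the labels says that replicates are separate cultures, so the p-values measure the spread between these 2 lines. The 1958 called genes are 7.9% of those tested, and the gained and lost genes are 5.92% and 1.97%. Counts of list members called are to be read against these shares. At an unadjusted p under 0.05 there were 6706. Of 17238 protein-coding genes tested, 705 were gained and 394 lost. Pseudogenes gave 667 of the gained genes, or 45.4%, although they are 11.4% of the genes tested; their median log2 change was 1.23, against 0.02 for protein-coding genes and 0.07 for all genes. The day 0 knockout libraries are the ones with low pseudogene levels, so the genes described in what follows are mainly protein-coding. Pseudogenes raise the 5.92% gained among all genes above the share gained among protein-coding genes, which limits it as a yardstick for the lists.

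The spread behind each test comes from the difference between G6 and H8 at the 3 days, with 3 residual degrees of freedom, and the count depends on each library of day 4 and day 8. Without the G6 library of day 8 the test called 540 genes gained and 49 lost, and without the H8 library of day 8 it called 414 and 55. Without the G6 or the H8 library of day 4 it called 551 and 544 gained, and 105 lost in each case. Of the 127 named genes that were called, 49 and 44 kept the call without the G6 and the H8 library of day 8, 57 without the G6 or without the H8 library of day 4, and 96 and 87 without the G6 and the H8 library of day 0. None of these 127 genes changed its direction in any of these fits.

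Many genes moved in both lines and others in 1 of them. Across 13701 protein-coding genes with at least 1 CPM at day 8 or day 0, the change in G6 and the change in H8 had a Pearson r of 0.657, as a description over genes of the same libraries. In both lines 973 of these genes were over 2-fold higher at day 8 and 427 were over 2-fold lower. A further 835 were over 2-fold higher in H8 alone and 475 in G6 alone, while 52 were over 2-fold higher in H8 and lower in G6, and 24 the reverse. With a threshold of at least 5 TPM in both day 8 libraries and at most 0.5 TPM in both day 0 libraries, 15 protein-coding genes had switched on, of which 14 were called, among them T, Fgf5, Hand1, Afp, Ttr, Gbp2 and Gbp2b. The 5 protein-coding genes that had switched off by the same limits were Grem1, Inhba, Ltbp2, Mgp and Tm4sf1.

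**Figure D1:**
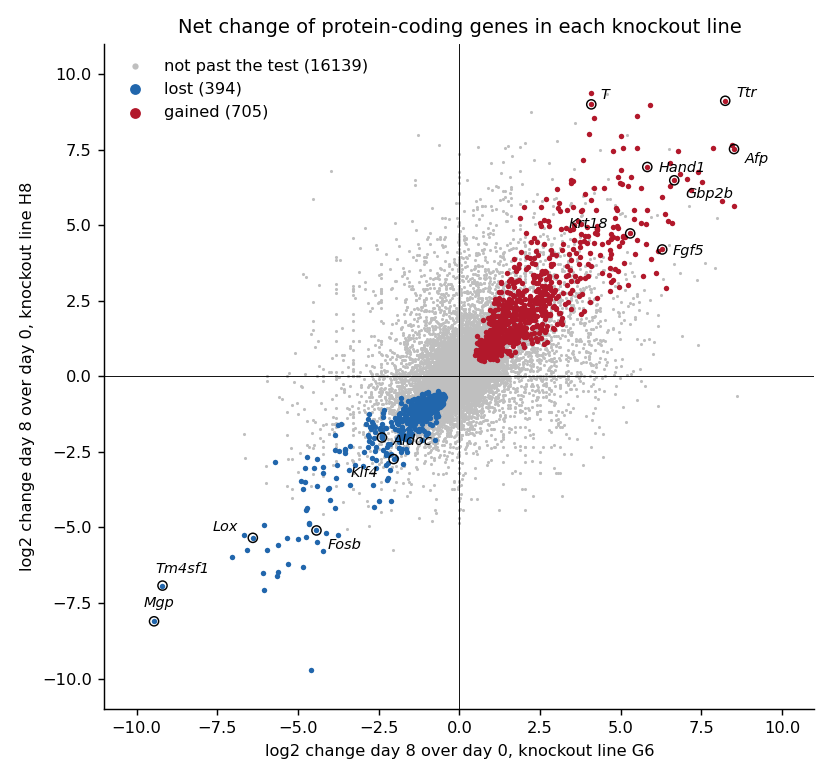
Log2 change of day 8 over day 0 in knockout line G6 (x axis) and in H8 (y axis) for each protein-coding gene tested; red points are the 705 genes gained, blue points the 394 lost, grey points those not past the test, and ringed points carry a name. Called genes lie in the upper right and lower left corners, which the call requires, and grey points reach 5 or more on the axis of a line while lying near 0 on the other.

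Transcripts of the core pluripotency factors were high at day 8, lower than in stem cells for some. Among 18 general pluripotency genes 4 fell and none rose, and among 16 naive pluripotency genes 2 fell and 1 rose. The list medians were -0.31 and -0.57 on the log2 scale, against 0.07 over all genes. Pou5f1, the central pluripotency factor (chromosome 17, 35506018 to 35510772), was measured at 1088 and 1013 TPM at day 8 and at 1953 and 1761 TPM at day 0. Both day 8 libraries lay below both day 0 libraries, and the change passed the test (log2 -0.82, SE 0.136, adjusted p = 0.0226). Sox2, its partner on DNA, was measured at 415 and 350.1 TPM at day 8 and 380.1 and 376 TPM at day 0, with overlapping libraries, and the 95% interval of its log2 change ran from -0.33 to 0.37. Nanog had 398 and 496 TPM at day 8, against 583 and 606 TPM at day 0, a change that did not pass (log2 -0.41, adjusted p = 0.316). At day 4 Nanog had 144 and 214 TPM and Sox2 255 and 221 TPM, below both other days. From day 0 to day 4 both fell (log2 -1.74 and -0.67, adjusted p = 0.00943 and 0.0321). Their rise from day 4 to day 8 did not pass (adjusted p = 0.0939 and 0.121). Pou5f1 had 1025 and 1161 TPM at day 4. Utf1, a chromatin protein of stem cells, fell 1.96-fold, and the Nodal co-receptor gene Tdgf1 and the TGF-beta family ligand gene Gdf3 fell 2.67-fold and 1.68-fold (adjusted p = 0.0144, 0.0135 and 0.0389). In wild type the 3 core factors were lower at day 8 than at day 0, at 178 and 1372 TPM for Pou5f1, 59.8 and 272 TPM for Nanog and 75.7 and 339 TPM for Sox2.

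The naive list as a whole was lowest at day 4. Its median log2 change was -2.21 for day 4 minus day 0 and 1.90 for day 8 minus day 4; these steps share libraries with the net change and are given only beside it. Esrrb, a nuclear receptor of naive cells, was measured at 286 and 348 TPM at day 0, 71.0 and 71.2 TPM at day 4 and 229 and 219 TPM at day 8. It was at its lowest in both day 4 libraries, and its day 8 libraries stayed under its day 0 libraries (log2 -0.73, SE 0.128, adjusted p = 0.0259). Zfp42, or Rex1, a marker of naive cells, was likewise lowest at day 4, with 717 and 825 TPM at day 0, 126 and 123 TPM at day 4 and 484 and 511 TPM at day 8. Its net change missed the threshold (log2 -0.63, adjusted p = 0.0524) and passed it with the line as a block (adjusted p = 0.0476; 0.00323 to 0.222 over all alternatives). Klf4, a factor that maintains naive cells, remained lower in both lines, with 68.0 and 108 TPM at day 8 and 289 and 699.9 TPM at day 0 (log2 -2.50, SE 0.465, adjusted p = 0.0307). Dppa3, or Stella, a naive and germ cell gene, went the other way, with 13.8 and 26.3 TPM at day 8 and 3.03 and 1.12 TPM at day 0 (log2 3.29, adjusted p = 0.0457; adjusted p = 0.0623 with the line as a block, 2.17e-05 to 0.174 over all alternatives).

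Of 15 genes of the LIF and STAT3 pathway 5 fell and none rose, against 1.97% lost among all genes, and the list median was -0.26. Stat3, which carries the signal to DNA, was measured at 37.3 and 44.8 TPM at day 8 and 87.7 and 136 TPM at day 0 (log2 -1.29, adjusted p = 0.0427). Its feedback inhibitor Socs3 had 21.5 and 39.3 TPM at day 8 and 155 and 111 TPM at day 0 (log2 -2.17, adjusted p = 0.0307). Bcl3, a STAT3-induced cofactor of NF-kB, had 8.93 and 12.2 TPM at day 8 and 41.2 and 53.2 TPM at day 0 (log2 -2.45, adjusted p = 0.00602). The receptor gene Osmr was low throughout, with 1.01 and 0.569 TPM at day 8 and 2.70 and 2.64 TPM at day 0 (log2 -2.13, adjusted p = 0.0151). The fifth, the LIF receptor gene Lifr, outside the rule for named genes, had a log2 change of -0.79. For each of the first 4 genes both day 8 libraries were below both day 0 libraries.

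The epiblast stage that follows the naive state is marked by another set of genes. Of 15 formative and primed epiblast genes tested, 5 rose and none fell, with a median log2 change of 1.08. Fgf5, the growth factor of the primed epiblast (chromosome 5, 98254184 to 98277030), was measured at 0.0826 and 0.370 TPM at day 0, 41.1 and 57.3 TPM at day 4 and 8.76 and 8.94 TPM at day 8. It was near 0 in both stem cell libraries and highest at day 4 (net change log2 4.94, SE 0.581, adjusted p = 0.00852). Otx2, a homeobox factor of epiblast and forebrain, had 115 and 52.1 TPM at day 8 and 21.2 and 15.4 TPM at day 0, with no overlap (log2 2.26, adjusted p = 0.0323). The kinase gene Pim2 rose 4.13-fold, the zinc finger gene Sall2 6.77-fold and Dnmt3b, a de novo DNA methyltransferase, 2.11-fold (adjusted p = 0.0238, 0.0359 and 0.0463). The FGF receptor gene Fgfr2 and the ERK phosphatase gene Dusp4 rose 6.81-fold and 5.76-fold (adjusted p = 0.00311 and 0.0108), among 3 of 21 FGF pathway genes gained.

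Of 24 WNT pathway genes 4 rose and none fell, and of 18 primitive streak genes 2 rose and none fell, from very low levels in stem cells. In bulk libraries, fewer cells of a type and less RNA per cell cannot be told apart. T, or brachyury, the T-box factor of the streak (chromosome 17, 8434423 to 8442496), was measured at 0.392 and 0 TPM at day 0, 30.7 and 78.5 TPM at day 4 and 7.85 and 9.34 TPM at day 8, and in wild type at 2.23, 853 and 8.08 TPM at the same days. Both knockout bodies of day 8 were near the wild-type level of that day, and the stem cells were lowest (log2 5.23, SE 1.01, adjusted p = 0.0338). The ligand gene Wnt3 had 0.930 and 3.66 TPM at day 8 and 0.0440 and 0 TPM at day 0 (log2 6.73, adjusted p = 0.0215), from only 4 counts over the day 0 group. Wnt8a, another ligand, had 1.84 and 2.12 TPM at day 8 and 0.237 and 0.396 TPM at day 0 (log2 2.63, adjusted p = 0.0226). The WNT feedback genes Axin2 and Rnf43 rose 3.60-fold and 3.33-fold (adjusted p = 0.0493 and 0.0257). The streak median was 0.86 in G6 and 3.62 in H8, and the median over both, 2.52, became 2.27 with the 3 members at 0 in a group set at their lower bound.

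Nodal, activin and BMP genes split, with 6 of 26 gained and 4 lost. Id2 and Id3, BMP targets that block basic helix-loop-helix factors, rose 4.49-fold and 4.78-fold (adjusted p = 0.00459 and 0.0186). Inhba, which encodes the activin A subunit, went the other way, at 0.0688 and 0.314 TPM at day 8 and 7.36 and 9.78 TPM at day 0 (log2 -5.40, SE 0.605, adjusted p = 0.00774).

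Ttr and Afp, the largest rises among called protein-coding genes with at least 5 CPM at day 8 or day 0, are known as products of yolk sac endoderm. Which cells held them in these bodies was not tested. Of 20 extraembryonic endoderm and yolk sac genes 6 rose and none fell, and the median log2 change was 1.87. Afp, the fetal serum protein of yolk sac and liver (chromosome 5, 90490737 to 90508907), was measured at 0 and 0.0582 TPM at day 0, 0.0899 and 0.112 TPM at day 4 and 5.41 and 14.5 TPM at day 8. It was near 0 at day 0 and at day 4 in both lines (net change log2 8.22, SE 0.981, adjusted p = 0.00897). Ttr, which carries thyroid hormone and retinol, had 7.39 and 13.8 TPM at day 8 and no count in either stem cell library, so it was at least 268-fold higher, against a floor of 3 counts over the group. Such bounds cover counting error only and would be up to 4 times lower where counts come in steps of 4. The lipoprotein gene Apob had 4.02 and 8.67 TPM at day 8, against 0.212 and 0.263 TPM at day 0 (log2 5.09, adjusted p = 0.00758). Apoa4, another apolipoprotein, had 0.801 and 1.25 TPM at day 8 and no count at day 0, at least 38.6-fold higher. Rbp4, the retinol carrier, rose to 15.1 and 15.2 TPM at day 8, against 6.38 and 3.19 TPM at day 0 (log2 1.72, adjusted p = 0.0462), while wild type had 346 TPM at day 8 and 2.76 TPM at day 0. The 5 visceral and yolk sac endoderm markers summed to 38.7 and 41.7 TPM at day 8 and 9.25 and 2.52 TPM at day 0, against 272.7 TPM in wild type at day 8. Of these, Afp and Ttr were called, and Apoa1, Amn and Cubn were not.

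Of the 43 lists, the epithelial and trophoblast lists had the largest shares gained, with 8 of 18 and 7 of 16 tested members, and medians of 0.94 and 2.60. They share Krt8 and Krt18, and the trophoblast list had 1 member lost, the placental hormone gene Prl2c2 (log2 -3.52), named for that reason. Krt18, a keratin of simple epithelia (chromosome 15, 102028180 to 102032027), was measured at 16.2 and 38.5 TPM at day 0, 149 and 174 TPM at day 4 and 610.1 and 1059 TPM at day 8. It rose in both lines with no overlap (log2 4.91, SE 0.538, adjusted p = 0.00717), and its partner Krt8 had 483 and 976 TPM at day 8 and 34.1 and 98 TPM at day 0 (log2 3.44, adjusted p = 0.0342). Krt7 and Krt19, keratins of ducts and trophoblast, rose 12.9-fold and 4.15-fold, and the tight junction gene Cldn6 6.29-fold (adjusted p = 0.0380, 0.00452 and 0.00333). Cdx2, a caudal factor of trophectoderm and posterior embryo, had 1.77 and 4.69 TPM at day 8 and 0.122 and 0.159 TPM at day 0 (log2 4.50, adjusted p = 0.0232). Hand1, a factor of extraembryonic mesoderm, trophoblast and heart, had 14.7 and 57.7 TPM at day 8 and 0.253 and 0.441 TPM at day 0, with the higher value in H8 (log2 6.68, SE 0.817, adjusted p = 0.00956). Tmprss2, a transmembrane serine protease of epithelia, had 14.8 and 15.5 TPM at day 8 and 0.131 and 0.0750 TPM at day 0, nearly the same in both lines (log2 7.20, SE 0.438, adjusted p = 0.00224). The 5 trophoblast markers summed to 56.9 and 62.3 TPM at day 8 and 12 and 28.6 TPM at day 0, against 61.2 TPM in wild type at day 8. Of these, Plet1 had 26.28 and 25.45 TPM at day 8 and 11.14 and 24.88 TPM at day 0. Elf5 was at 0.326 and 0.409 TPM at day 8, and the giant cell hormone gene Prl3d1 was listed at 0 in every library. Wild type at day 8 had more than either knockout line of Krt18 (1296 TPM), Cdx2 (37.3 TPM) and Hand1 (239 TPM), and less of Krt7 (11.7 TPM).

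Cadherins and vimentin, which switch when epithelial cells become mesenchyme, did not pass the test. Cdh1, or E-cadherin, was measured at 262 and 201 TPM at day 8 and 171 and 173 TPM at day 0 (log2 0.45, adjusted p = 0.155). Cdh2, or N-cadherin, had 3.50 and 19.9 TPM at day 8 and 2.13 and 1.91 TPM at day 0 (log2 2.54, adjusted p = 0.0917). Vim had 40.7 and 191 TPM at day 8 and 161 and 162 TPM at day 0 (log2 -0.46, adjusted p = 0.683). In G6 both mesenchymal genes were lower at day 8 than in H8.

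**Figure D2:**
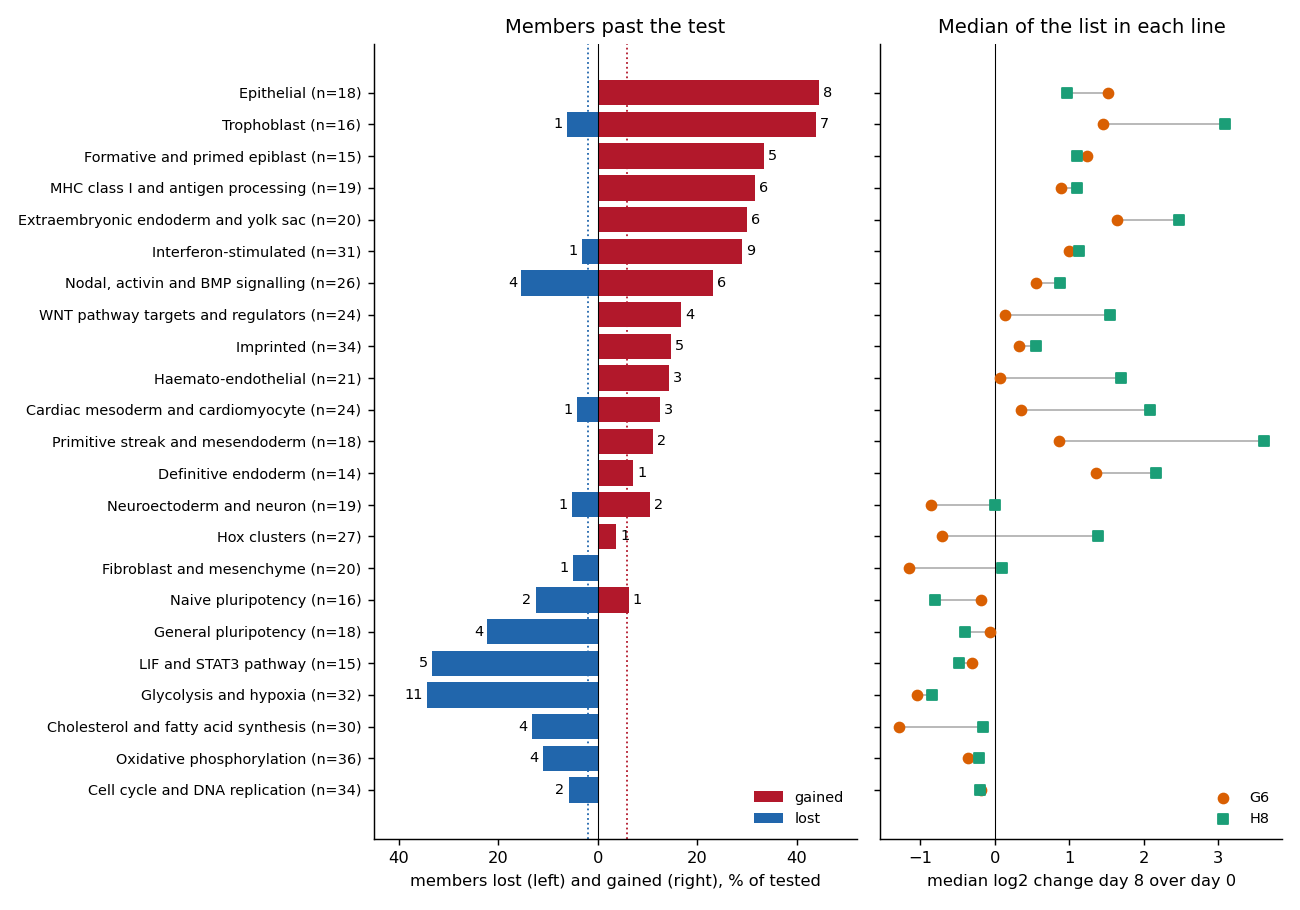
Left, share of the tested members of each gene list that were gained (red, to the right) or lost (blue, to the left) at day 8 against day 0, with the number of members at the bar; dotted lines mark 5.92% gained and 1.97% lost among all genes. Right, median log2 change of each list within knockout line G6 (circles) and H8 (squares); the streak list lies at 0.86 in G6 and 3.62 in H8.

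Markers of mature mesoderm were low in the day 8 bodies. The 5 cardiomyocyte markers summed to 7.04 and 10.1 TPM at day 8 and 16.1 and 8.52 TPM at day 0, against 234.1 TPM in wild type at day 8. The 3 erythroid markers summed to 0.465 and 4.28 TPM at day 8 and 0.499 and 0.941 TPM at day 0, against 502.5 TPM in wild type at day 8. The 4 endothelial markers summed to 15.5 and 18.5 TPM at day 8 and 9.78 and 4.46 TPM at day 0, against 179.7 TPM in wild type at day 8. Of 24 cardiac genes 3 were gained and 1 lost. Actc1, cardiac actin, had 0.469 and 0.432 TPM at day 8 and no count at day 0, at least 13.8-fold higher, and Gata5, a cardiac and endoderm factor, had 0.296 and 0.221 TPM at day 8 and no count at day 0, at least 17.6-fold higher. Ttn, which encodes the giant sarcomere protein titin, was lower at day 8, with 0.167 and 0.173 TPM against 0.531 and 0.571 TPM at day 0 (log2 -1.71, adjusted p = 0.0147). Of 21 haemato-endothelial genes 3 were gained, among them the VEGF receptor gene Flt1 (7.38 and 13.6 TPM at day 8, 2.02 and 0.695 TPM at day 0, log2 2.93, adjusted p = 0.0258). The angiopoietin receptor gene Tek had 12.8 and 11.6 TPM at day 8 and 6.24 and 3.78 TPM at day 0 (log2 1.3, adjusted p = 0.0283), and Etv2, a factor of blood and vessel progenitors, 1.67 and 1.94 TPM at day 8 and 0.459 and 0.112 TPM at day 0 (log2 2.68, adjusted p = 0.0475; adjusted p = 0.0617 with the line as a block, 7.04e-05 to 0.164 over all alternatives). List medians were 1.33 for cardiac and 1.45 for haemato-endothelial genes, at 0.36 and 0.07 in G6 and 2.09 and 1.70 in H8.

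Of 19 neural genes 2 were gained and 1 lost, or 10.5% and 5.3%, against 5.92% and 1.97% of all genes. Pax3, a dorsal neural and muscle factor, had 0.270 and 0.887 TPM at day 8 and no count at day 0, at least 38.8-fold higher. Dcx, a microtubule protein of young neurons, was also at no count at day 0 and at 0.0382 and 0.0264 TPM at day 8, at least 6.12-fold higher (adjusted p = 0.0433; adjusted p = 0.0673 with the line as a block, 0.00656 to 0.780 over all alternatives). With counts in steps of 4 its bound would be only 1.53-fold. Stmn2, a microtubule regulator of neurons that these stem cells also express, fell to 104 and 83.3 TPM at day 8, against 245 and 241 TPM at day 0 (log2 -1.37, adjusted p = 0.00874). Among 27 Hox genes, the patterning factors of the body axis, 1 was gained: Hoxd4, with 0.541 and 1.61 TPM at day 8 and no count at day 0, at least 35.6-fold higher. That is 3.7% of the list, against 5.92% gained among all genes and 705 of 17238 protein-coding genes. The Hox median was -0.71 in G6 and 1.39 in H8. Prdm6, a regulator of smooth muscle, was at 1.05 and 7.74 TPM at day 8 and 0.0529 and 0 TPM at day 0 (log2 7.41, adjusted p = 0.0384; adjusted p = 0.0587 with the line as a block, 7.45e-05 to 0.256 over all alternatives).

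Of 31 interferon-stimulated genes tested 9 rose, and of 19 MHC class I and antigen processing genes 6 rose, against 5.92% of all genes. Interferons induce such genes through STAT and IRF factors, which bind the interferon-stimulated response element (searched as GAAA, any 2 bases and GAAA again or, on the other strand, TTTC, any 2 bases and TTTC). The only one of these genes called lost was Oas2, an RNA-sensing synthetase (log2 -1.31), named for that reason. Of the 31 interferon-stimulated genes, 23 had a positive and 8 a negative net log2 change. The list medians were 0.98 and 0.97. The guanylate-binding protein genes, GTPases that act on intracellular pathogens, lie near each other on chromosome 3 and were among the largest rises. The 160 bases before the RefSeq start of 4 of them are shown because all 4 hold the element, in capitals, 5′ to 3′ along the gene (GRCm38.p6).
Gbp2, chr3:142620503-142620662, plus strand: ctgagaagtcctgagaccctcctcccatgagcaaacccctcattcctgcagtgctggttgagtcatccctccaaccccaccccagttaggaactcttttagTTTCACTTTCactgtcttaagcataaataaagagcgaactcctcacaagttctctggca
Gbp2b, chr3:142594687-142594846, plus strand: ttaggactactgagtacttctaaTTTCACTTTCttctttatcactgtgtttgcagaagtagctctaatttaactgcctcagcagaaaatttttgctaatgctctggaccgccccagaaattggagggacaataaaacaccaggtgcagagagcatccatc
Gbp3, chr3:142559884-142560043, plus strand, first of 2 listed starts: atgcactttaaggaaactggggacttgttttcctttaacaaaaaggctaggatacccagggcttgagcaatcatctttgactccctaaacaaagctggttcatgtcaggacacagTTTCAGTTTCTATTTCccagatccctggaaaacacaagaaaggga
Gbp7, chr3:142530176-142530335, plus strand: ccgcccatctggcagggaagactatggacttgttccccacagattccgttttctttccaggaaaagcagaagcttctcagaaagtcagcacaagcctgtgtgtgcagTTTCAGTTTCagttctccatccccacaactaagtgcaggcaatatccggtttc

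The element starts 59 bases before the start of Gbp2, 137 before Gbp2b, 45 and 39 (overlapping) before Gbp3 and 53 before Gbp7. Within 250 bases before a start it occurs in 936 of 27025 genes of the table, or 3.46%, in 11 of the 23 interferon-stimulated genes with an entry, and in 3 of the 16 antigen processing genes with an entry. Psmb8 has no match in its window. Such matches describe the letters only and show no binding.

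Gbp2b was measured at 0.0976 and 0.170 TPM at day 0, 12.8 and 15.1 TPM at day 4 and 10.5 and 16.8 TPM at day 8. Both stem cell libraries were near 0 and the bodies of both days lay close together (log2 6.64, SE 0.415, adjusted p = 0.00227). Gbp2 had 0.430 and 0.187 TPM at day 0, 19.08 and 22.8 TPM at day 4 and 14.2 and 24.4 TPM at day 8 (log2 5.94, SE 0.469, adjusted p = 0.00311). Gbp3 rose 31.0-fold and Gbp7 17.0-fold (adjusted p = 0.00605 and 0.0193). These genes are close paralogs, so their split of reads is uncertain. The double-stranded RNA sensor gene Ifih1 rose 22.1-fold, to 0.433 and 0.538 TPM at day 8 (adjusted p = 0.00570), and the GTPase gene Mx2 had 0.533 and 1.18 TPM at day 8 and no count at day 0, at least 26.4-fold higher.

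The antigen processing list had a median of 1.65 for day 4 minus day 0 and of -0.98 for day 8 minus day 4. Psmb8, a subunit of the immunoproteasome, was measured at 0.478 and 0.0737 TPM at day 0, 13.5 and 13.3 TPM at day 4 and 6.51 and 4.56 TPM at day 8 (net change log2 4.20, SE 0.683, adjusted p = 0.0215). The peptide transporter gene Tap2 rose 4.36-fold, the peptide-trimming gene Erap1 5.19-fold and the class I gene H2-Q4 4.34-fold (adjusted p = 0.0232, 0.00403 and 0.00607); H2 genes are close paralogs and uncertain. All 19 tested antigen processing genes had a positive net log2 change. From day 0 to day 8 wild type ran the other way for the Gbp genes and Psmb8, but its day 4 levels differed by gene. At day 0, day 4 and day 8 it had 62.9, 95.1 and 6.94 TPM for Gbp2 and 51.2, 67.3 and 4.94 TPM for Gbp2b. Psmb8 was likewise highest at day 4, with 9.08, 55.7 and 1.93 TPM. Gbp3 and Gbp7 instead fell by day 4, from 44.1 to 18.7 TPM and from 19.4 to 5.85 TPM. H2-Q4 had 34.3, 102 and 35.5 TPM at the same days. The median net change of the 31 interferon-stimulated genes was -3.93 in wild type, with no test.

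**Figure D3:**
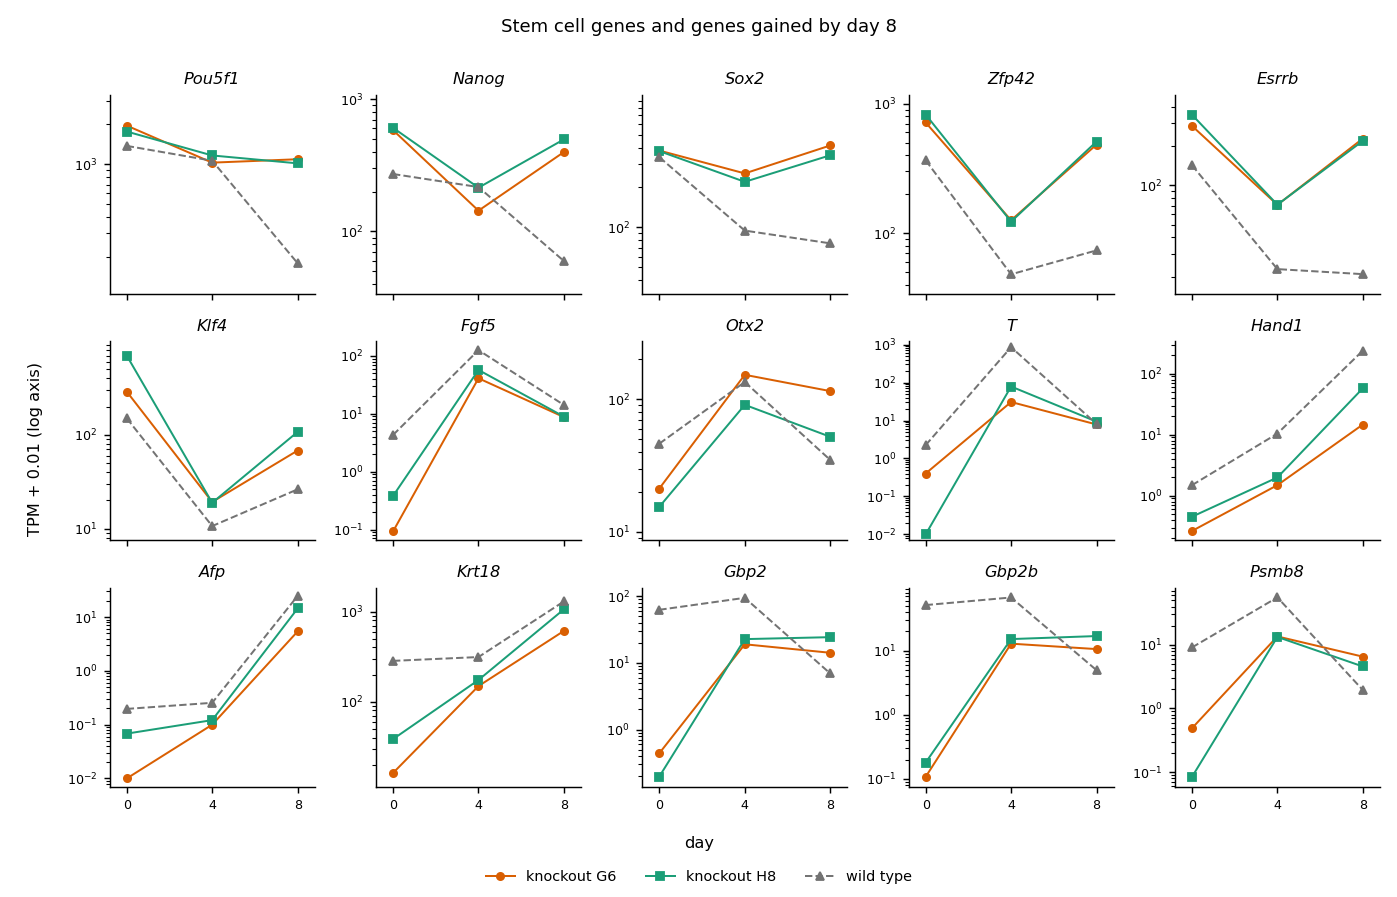
Level (TPM + 0.01, log axis) at day 0, day 4 and day 8 of 6 stem cell genes and 9 genes gained by day 8, in knockout lines G6 (circles) and H8 (squares) and in wild type (triangles, dashed), 1 library per point. Pou5f1 stands at 1088 and 1013 TPM in the knockout bodies and at 178 TPM in wild-type bodies of day 8, and Gbp2 rises in the knockout while the wild-type level is lower at day 8 than at day 0.

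Other genes among the 12 largest rises of called protein-coding genes with at least 5 CPM, and members of the germline and imprinted lists, were gained as well. Gadl1, an acidic amino acid decarboxylase, was measured at 49.8 and 45.4 TPM at day 8 and 0.680 and 0.0329 TPM at day 0 (log2 6.77, SE 0.832, adjusted p = 0.00964), and in wild type at 30.1 TPM at day 8 and 48.8 TPM at day 0. Fndc3c1, a fibronectin type III gene of the X chromosome, had 11.9 and 14.8 TPM at day 8 and 0.227 and 0.0247 TPM at day 0 (log2 6.55, adjusted p = 0.00656). Zfp36l3, an RNA-binding zinc finger gene of placenta and yolk sac, rose 82.2-fold and Cyp1a1, a target of the aryl hydrocarbon receptor, 80.4-fold (adjusted p = 0.00566 and 0.0225). Csf1r, the receptor of macrophages and trophoblast, had 2.84 and 1.90 TPM at day 8 and 0.0293 and 0.0339 TPM at day 0 (log2 6.10, adjusted p = 0.0140), while the macrophage marker Ptprc was at 0.0433 and 0.0152 TPM at day 8 and the 4 macrophage markers summed to 32.7 and 35.2 TPM at day 8 and 22.1 and 71.2 TPM at day 0. The X-linked homeobox genes Rhox6 and Rhox9 of placenta and germ cells, the 2 gained of 18 germline genes, rose 7.46-fold and 7.27-fold (adjusted p = 0.0102 and 0.00607); their log2 change for day 8 minus day 4 was 3.51 and 2.67. Of 34 imprinted genes 5 rose and none fell. Peg3, a paternally expressed zinc finger gene, had 65.3 and 137 TPM at day 8 and 10.7 and 18.8 TPM at day 0 (log2 2.74, adjusted p = 0.0238), and Magel2 rose 13.6-fold (adjusted p = 0.00359). The non-coding RNA Airn, which silences Igf2r, rose (log2 3.71, adjusted p = 0.0326), and so did the zinc finger gene Zim1 (log2 3.10, adjusted p = 0.0382); with the line as a block their adjusted p was 0.0507 and 0.0523 (7.81e-07 to 0.103 and 8.83e-07 to 0.118 over all alternatives).

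Further lists had 1 to 3 members past the test, to be read against 5.92% gained and 1.97% lost among all genes. Of 20 p53 targets 2 rose, the cell cycle inhibitor gene Cdkn1a (1.95-fold, adjusted p = 0.0151) and the stress gene Trp53inp1 (1.82-fold, adjusted p = 0.0335), and 1 fell, the secreted factor gene Gdf15 (2.94-fold, adjusted p = 0.0480; adjusted p = 0.0534 with the line as a block, 0.000186 to 0.205 over all alternatives). Of 23 apoptosis genes 2 rose, the survival gene Bcl2 (6.53-fold, adjusted p = 0.0132) and the death-promoting gene Bcl2l11 (1.77-fold, adjusted p = 0.0409). Of 28 lysosome genes the protease gene Ctsl rose 3.50-fold and the regulator gene Tfeb fell 3.60-fold (adjusted p = 0.0164 and 0.0407). Among 27 Polycomb genes Ezh2, the methyltransferase, fell 1.66-fold, and among 19 Notch genes Mfng, a glycosyltransferase, fell 2.36-fold (adjusted p = 0.0272 and 0.0400). Dnmt3b was the only called gene of 13 in DNA methylation and Cldn6 the only one of 14 in definitive endoderm. Among 19 genes of the 2-cell-like state 1 rose, the predicted gene Gm8300 (3.66-fold, adjusted p = 0.0358).

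In lists of growth and housekeeping genes, 9.1% of amino acid and stress genes, 7.3% of cytosolic ribosomal protein genes, 5.9% of cell cycle genes and 4.5% of heat shock genes were lost, against 1.97% of all genes. Of 22 amino acid and stress genes 2 fell, the serine and glycine synthesis genes Psat1 and Shmt2, by 1.83-fold and 1.75-fold (adjusted p = 0.0149 and 0.0413), with a list median of -0.60. Of 34 cell cycle genes 2 fell, the cyclin genes Ccne1 and Ccnb1, by 2.31-fold and 1.55-fold (adjusted p = 0.0291 and 0.0475); for Ccnb1 the adjusted p was 0.0560 with the line as a block, and 0.00271 to 0.237 over all alternatives. Of 55 cytosolic ribosomal protein genes 4 fell and 2 rose; Rpl27, Rpl22l1 and Rpl18 fell 2.41-fold, 2.40-fold and 1.71-fold and Rpl34 rose 2.05-fold (adjusted p = 0.00656, 0.0440, 0.0256 and 0.0375), and processed pseudogenes of such genes can share their reads. Of 22 heat shock genes the mitochondrial chaperonin gene Hspe1 fell 1.54-fold (adjusted p = 0.0467; adjusted p = 0.0554 with the line as a block, 0.00242 to 0.232 over all alternatives). No member was called among 13 mitochondrially encoded, 23 histone cluster, 7 Ifitm and 14 Lin28 pathway genes. Their most abundant members, mt-Co1 and mt-Atp8, Hist1h2bc and Hist1h1c, Ifitm2 and Ifitm3, and Hmga1 and Lin28a, had log2 changes of 0.46 and 0.54, -1.03 and 0.52, -0.41 and -0.32, and -0.12 and 0.51, none past the test.

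With Inhba and Fosb, described elsewhere, the genes that follow are the 12 largest falls among called protein-coding genes with at least 5 CPM at day 8 or day 0, beside the called members of the collagen list. Mgp, an inhibitor of calcification, had no count in either day 8 library and 35.7 and 13.0 TPM in stem cells, so it was at least 935-fold lower at day 8. Grem1, a secreted BMP antagonist (chromosome 2, 113746164 to 113758646), had 0.131 and 0.195 TPM at day 8 and 9.79 and 17.8 TPM at day 0 (log2 -6.40, SE 0.457, adjusted p = 0.00232). Lox, which cross-links collagen, had 0.263 and 0.980 TPM at day 8 and 28.6 and 38.3 TPM at day 0 (log2 -5.70, SE 0.630, adjusted p = 0.00743). Day 8 bodies lay far below stem cells in both lines, and day 4 bodies did too, with 0.848 and 0.499 TPM for Lox and 0.414 and 0.402 TPM for Grem1. The membrane protein gene Tm4sf1 had 0 and 0.0404 TPM at day 8 and 7.15 and 5.77 TPM at day 0 (log2 -8.29, adjusted p = 0.0125), and the matrix gene Ltbp2, which binds fibrillin fibres, had 0.30 and 0.462 TPM at day 8 and 9.34 and 9.69 TPM at day 0 (log2 -4.54, adjusted p = 0.00437). S100a4, a calcium-binding protein of motile cells, fell 76.2-fold, the caveolar gene Cavin2 33.5-fold, and the adhesion receptor gene Vcam1 18.8-fold (adjusted p = 0.00329, 0.00569 and 0.0368). Of 23 collagen chain genes Col6a3 fell 17.8-fold and Col18a1, of basement membranes, rose 2.37-fold (adjusted p = 0.0250 and 0.0173). Nxph4, a secreted neurexin ligand, fell 20.3-fold (adjusted p = 0.00943). Ereg, an EGF receptor ligand, was at 0.0223 and 0 TPM at day 8 and 0.733 and 5.92 TPM at day 0, mostly in H8 (log2 -8.27, adjusted p = 0.0364; adjusted p = 0.0561 with the line as a block, 0.000560 to 0.148 over all alternatives).

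The fibroblast marker sum and 3 Y-linked transcripts were also lower at day 8. The 7 fibroblast or feeder markers summed to 13.0 and 44.6 TPM at day 8 and 136.6 and 68.6 TPM at day 0, against 773.7 TPM and 179.8 TPM in wild type at the same days, with none of the 7 called and Lum listed at 0 in both day 0 libraries. Col1a1, the main fibroblast collagen, had 1.74 and 12.2 TPM at day 8 and 44.2 and 27.6 TPM at day 0. Col1a2, Col3a1, Dcn and Thy1 were also lower at day 8 in both lines. In H8 Postn went the other way, from 0.960 TPM at day 0 to 8.33 TPM at day 8, and Lum from 0 to 0.488 TPM. Over the whole list of 20 fibroblast and mesenchyme genes, 1 was lost, Timp1, an inhibitor of matrix proteases (31.4 and 46.7 TPM at day 8, 93.6 and 135 TPM at day 0, log2 -1.56, adjusted p = 0.0293), and the median was -0.42. Y-linked Eif2s3y, Ddx3y and Uty had no count in either day 8 library, and 55 and 51, 59 and 130, and 28 and 40 counts in the day 0 libraries of G6 and H8, against 3279 to 12131 counts in wild-type stem cells. All 3 were called lost, at least 108-fold, 189.9-fold and 68.8-fold lower, and were the called members of 12 sex chromosome genes. Kdm5d, also Y-linked, had 15 and 4 counts in the day 8 libraries and 24 and 29 counts in the day 0 libraries, and was not called. The labels name no feeder cells, and the part of other cells in the losses was not tested.

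Of 18 immediate early genes 2 fell, or 11.1% against 1.97% lost among all genes, and none rose. Fosb, a subunit of the AP-1 factor, was measured at 94.6 and 237 TPM at day 0, 7.09 and 5.06 TPM at day 4 and 3.94 and 7.0 TPM at day 8. The stem cells of both lines lay far above all bodies (net change log2 -4.88, SE 0.565, adjusted p = 0.00814), whereas wild type had 59.0 TPM at day 8 and 51.1 TPM at day 0. Fos had 48.3 and 51.9 TPM at day 8 and 293 and 855 TPM at day 0 (log2 -3.74, adjusted p = 0.0171). Over the list, the median in G6 was -0.26 and that in H8 was -1.45.

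Glycolysis and hypoxia genes formed the list with the most members lost of the 43, 11 of 32, and none was gained. Its median was -0.94 (G6 -1.04, H8 -0.84). For day 4 minus day 0 it was 0.35 and for day 8 minus day 4 it was -1.10. Pgk1, phosphoglycerate kinase, was measured at 1541 and 1469 TPM at day 0, 2008 and 1577 TPM at day 4 and 549.7 and 493 TPM at day 8. It stood as high at day 4 as at day 0 and was lower in both day 8 libraries (log2 -1.53, SE 0.146, adjusted p = 0.00506). Its processed pseudogene Pgk1-rs7, which can share its reads, had 137 and 109.6 TPM at day 8 and 100.5 and 106 TPM at day 0, and was named after its values were seen. Aldoc, an aldolase, had 31.4 and 24.5 TPM at day 0, 39.6 and 25.8 TPM at day 4 and 5.80 and 6.08 TPM at day 8 (log2 -2.22, SE 0.239, adjusted p = 0.00685). Hk2, the hexokinase of proliferating cells, had 75.9 and 60.9 TPM at day 8 and 273 and 199.6 TPM at day 0 (log2 -1.81, SE 0.203, adjusted p = 0.00769), and Bnip3, a hypoxia-induced mitophagy receptor, had 85.1 and 62.9 TPM at day 8 and 286 and 202 TPM at day 0 (log2 -1.76, SE 0.256, adjusted p = 0.0158). Day 8 libraries lay below day 0 libraries for each of these genes. In wild type the net log2 changes of these 4 genes were -0.56, -1.48, -1.38 and -1.09, from 1 library a day and with no test.

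Hypoxia-inducible factors bind a core whose forms include ACGTG (or CACGT on the other strand), the only form searched. These letters are in capitals in the 160 bases before the starts of 3 of these genes (RefSeq, GRCm38.p6, 5′ to 3′ along the gene). The 3 are shown because they hold these letters and all 3 fell.
Pgk1, chrX:106186940-106187099, plus strand: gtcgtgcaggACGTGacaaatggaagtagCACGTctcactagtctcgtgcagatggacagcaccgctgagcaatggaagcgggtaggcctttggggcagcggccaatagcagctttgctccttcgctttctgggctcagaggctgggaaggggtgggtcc
Bnip3, chr7:138909507-138909666, minus strand: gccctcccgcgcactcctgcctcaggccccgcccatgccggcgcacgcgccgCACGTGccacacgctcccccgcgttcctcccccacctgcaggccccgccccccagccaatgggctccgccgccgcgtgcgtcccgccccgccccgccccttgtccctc
Hk2, chr6:82774455-82774614, minus strand: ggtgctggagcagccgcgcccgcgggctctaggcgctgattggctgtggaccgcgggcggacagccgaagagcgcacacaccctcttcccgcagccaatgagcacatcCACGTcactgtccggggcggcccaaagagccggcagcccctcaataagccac

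The letters start 150 and 131 bases before Pgk1, 108 and 107 (overlapping, on opposite strands) before Bnip3 and 52 before Hk2, with another match 226 bases before Hk2, outside the stretch shown. Within 250 bases they occur in 4998 of 27025 genes of the table, or 18.5%, in 18 of the 29 listed genes with an entry and in 6 of the 10 lost ones with an entry. Aldoc has no match to ACGTG or CACGT in its first listed window.

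Of 30 sterol and fatty acid synthesis genes 4 fell and none rose, and 29 of the 30 had a net log2 change below 0. Srebf2, the factor that switches sterol genes on, was measured at 42.5 and 62.3 TPM at day 8 and 141 and 129.6 TPM at day 0 (log2 -1.36, SE 0.209, adjusted p = 0.0179). Its target Cyp51 had 55.3 and 42.9 TPM at day 0, 55.4 and 46.7 TPM at day 4 and 16.6 and 16.5 TPM at day 8 (log2 -1.53, SE 0.157, adjusted p = 0.00602), so the day 4 libraries lay with those of day 0. Msmo1, a sterol oxidase, fell 2.70-fold and Scd1, the stearoyl-CoA desaturase, 4.77-fold (adjusted p = 0.0175 and 0.0273). Within G6 the median of the list was -1.29, and within H8 it was -0.16. Of 36 oxidative phosphorylation genes 4 fell, Cox7c, Ndufs3, Cox6a1 and Atp5b, by 1.88-fold, 1.82-fold, 1.69-fold and 1.47-fold (adjusted p = 0.0418, 0.0328, 0.0222 and 0.0373), and the list median was -0.29. For Cox7c the adjusted p was 0.0536 with the line as a block, and 0.000673 to 0.187 over all alternatives.

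**Figure D4:**
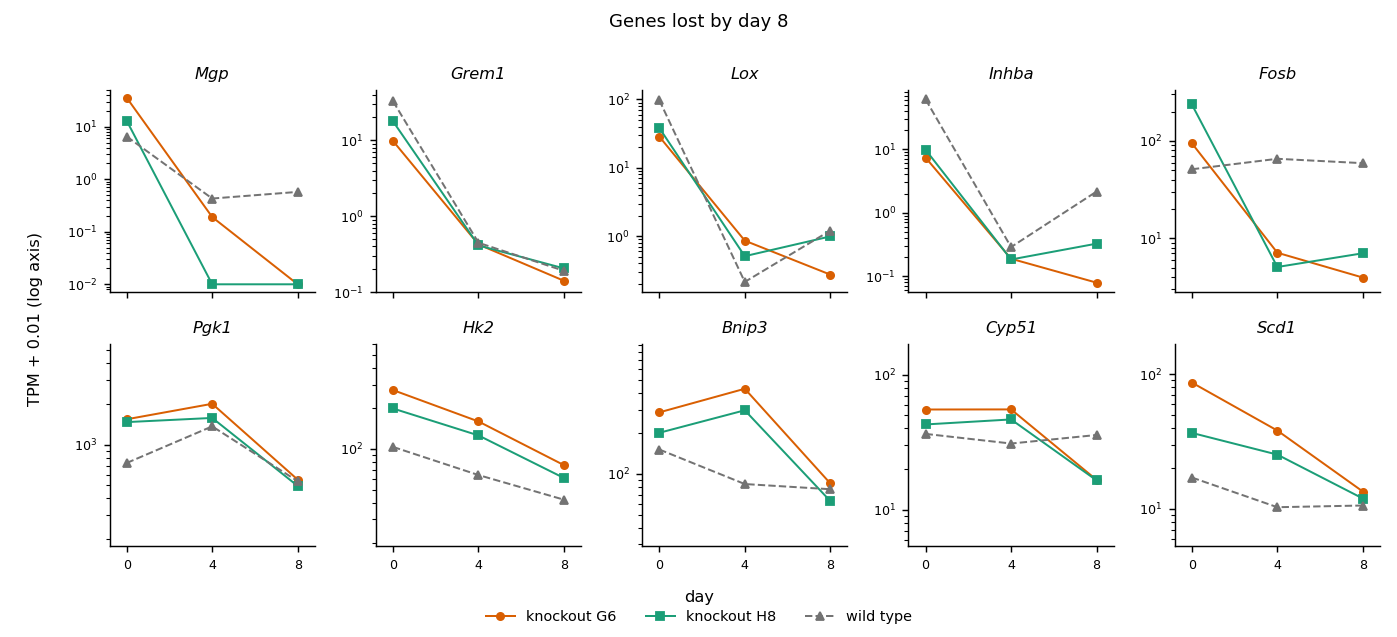
Level (TPM + 0.01, log axis) at day 0, day 4 and day 8 of 10 genes lost by day 8, in knockout lines G6 (circles) and H8 (squares) and in wild type (triangles, dashed), 1 library per point. Mgp, Grem1, Lox, Inhba and Fosb are low in the knockout by day 4, while Pgk1, Bnip3 and Cyp51 are near their day 0 level at day 4 and low at day 8.

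Few genes met the criterion of having come back. The criterion asked for both steps past 0.05 with opposite signs, and for a net change not past 0.05 and under 1.5-fold either way; it is no test that levels were equal. Day 4 minus day 0 had 3650 genes past 0.05 (14.7%) and day 8 minus day 4 had 77 (0.311%), which bounds the number that could qualify. It held for 9 genes that went up and then down (0.0363%) and 13 that went down and then up (0.0524%), and for 16 of these 22 the 95% interval of the net change lay within 2-fold. Without the G6 or the H8 library of day 4 or of day 8 it held for no gene, and the cause was not tested.

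Of the genes that rose and came back, Cnn1, a smooth muscle actin-binding protein, was measured at 4.29 and 2.48 TPM at day 0, 25.2 and 23.8 TPM at day 4 and 3.29 and 2.31 TPM at day 8. Its stem cells and day 8 bodies overlapped. The steps were log2 3.08 and -3.18 (adjusted p = 0.00606 and 0.0434), and the 95% interval of the net log2 change was -0.93 to 0.74. Nes, the intermediate filament of neural progenitors, had 9.44 and 6.44, then 44.7 and 59.4 and then 8.45 and 12.1 TPM at day 0, day 4 and day 8 (interval -0.25 to 1.04). Tmem145, a membrane protein gene, had 1.05 and 1.69, then 9.86 and 11.5 and then 1.68 and 1.27 TPM (interval -0.71 to 0.83). Ier3, an early response gene of survival signalling, and Mapk14, the p38 alpha kinase, were highest at day 4, at 123 and 96.3 TPM and 70.6 and 65.3 TPM, and had net intervals of -0.87 to 0.15 and -0.21 to 0.50.

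Of the genes that fell and came back, Ifitm2, a membrane protein gene that restricts virus entry, had 869 and 803 TPM at day 0, 123 and 131 TPM at day 4 and 559.6 and 692 TPM at day 8. The stem cells were highest and the day 4 bodies lowest in both lines (steps log2 -2.72 and 2.31, adjusted p = 0.00138 and 0.0295; net interval -0.79 to -0.04). H2-M5, a class I gene, had 48.0 and 48.1, then 12.5 and 9.56 and then 43.4 and 51.8 TPM (interval -0.46 to 0.46), and Myof, which repairs membranes, had 43.0 and 43.4, then 9.57 and 10.2 and then 40.4 and 48.6 TPM (interval -0.32 to 0.41). For these 2 genes the day 8 and day 0 levels were the closest of the 8 named. Kat6b, a histone acetyltransferase, was at 40.7 and 39.4 TPM at day 4 and had a net log2 change of -0.44 (interval -0.76 to -0.12), with 137 and 140.5 TPM at day 8 below 204 and 205 TPM at day 0 in both lines. Nid1, a basement membrane protein, was at 21.8 and 15.8 TPM at day 4 with a net change of -0.53 (interval -1.01 to -0.04). For both genes the interval lies below 0, although the net change did not pass the test over all genes. Gabbr1, a GABA receptor subunit, was at 28 and 19.8 TPM at day 4 with a net change of -0.32 (interval -0.78 to 0.15), and Tead4, a Hippo pathway factor, at 7.50 and 7.12 TPM with -0.43 (interval -0.91 to 0.05). S100a6, a calcium-binding protein, was at 31.2 and 38.5 TPM at day 4 and had a net change of 0.37 (interval -0.24 to 0.97).

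**Figure D5:**
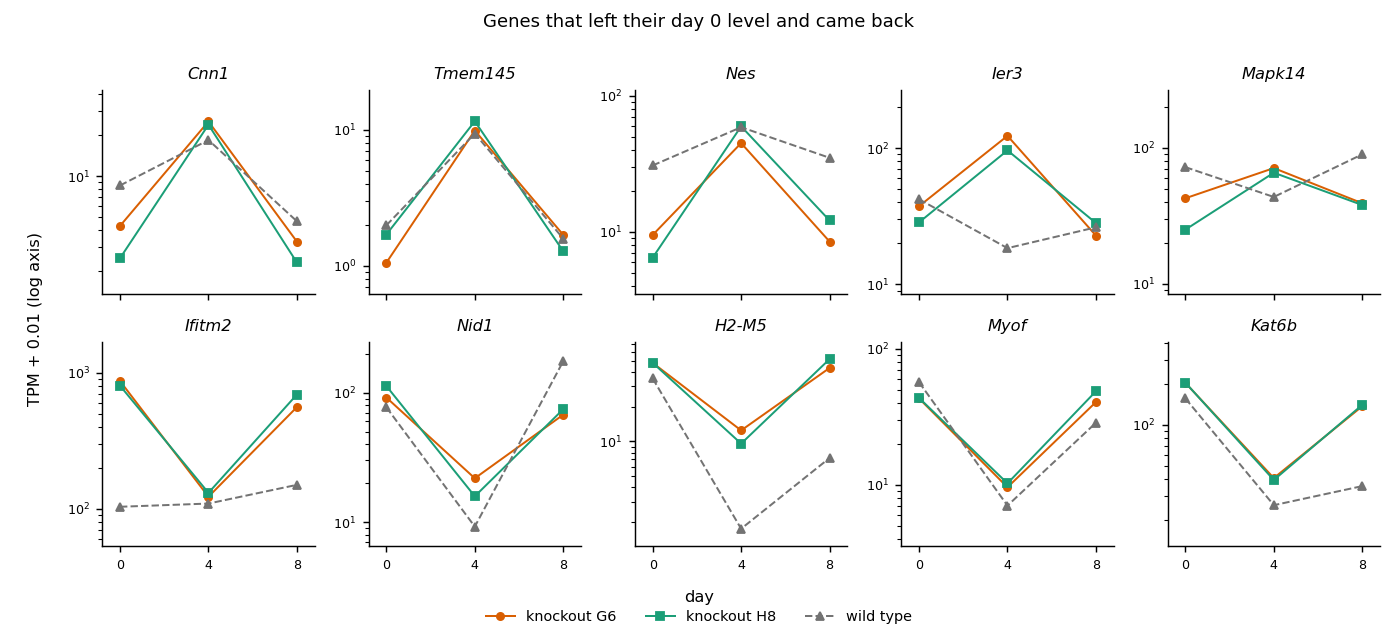
Level (TPM + 0.01, log axis) at day 0, day 4 and day 8 of 5 genes that rose and came back (top row) and 5 that fell and came back (bottom row), in knockout lines G6 (circles) and H8 (squares) and in wild type (triangles, dashed), 1 library per point. Myof stands at 43.0 and 43.4 TPM at day 0 and 40.4 and 48.6 TPM at day 8 in the knockout, and H2-M5 returns in the knockout while the wild-type level is 7.18 TPM at day 8.

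The net change was also set against that of wild type, as the difference (knockout day 8 minus day 0) minus (wild type day 8 minus day 0). The wild type has 1 library a day and is assumed to vary like the knockout, and genotype and line cannot be told apart. The difference was positive for 931 genes (3.75%) and negative for 235 (0.948%), and 6343 genes had an unadjusted p under 0.05. With protein-coding genes alone it was positive for 231 and negative for 64. The median difference was 0.11 over all genes tested and -0.02 over protein-coding genes. The counts over all genes include pseudogenes, which were low in the day 0 knockout libraries, and their part was not tested. Without the G6 or without the H8 library of day 4, and without the G6 library of day 8, no gene passed, and without the H8 library of day 8 the counts were 22 and 5. The fit shares the knockout libraries with the net change. General pluripotency genes had 9 of 18 members with a positive difference past the test and naive genes 3 of 16, with Pou5f1 at 2.23 and Sox2 at 2.29 (adjusted p = 0.0163 and 0.0173). Of the interferon-stimulated genes 22 of 31, and of the antigen processing genes 9 of 19, had a positive difference past the test, against 3.75% of all genes. By the rule for named genes, large positive differences were those of Piwil4, a piRNA pathway gene (11.94), Klhdc7a, a kelch protein gene (11.24), and the Gbp genes, from 7.61 in Gbp7 to 10.13 in Gbp2b. Piwil4 was measured at 1.37 and 1.27 TPM at day 8 and 5.74 and 1.34 TPM at day 0 in the knockout, and was listed at 0 in wild type at day 8, with 5.66 TPM at day 0. Klhdc7a had 5.77 and 4.55 TPM at day 8 and 4.82 and 5.03 TPM at day 0 in the knockout, and was listed at 0 at day 8 and at 0.558 TPM at day 0 in wild type. The fitted values of both rest on a wild-type library at 0 and are no measure of size.

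Among the largest negative differences by the same rule, some genes were much higher in wild-type bodies than in wild-type stem cells. Frem1, a basement membrane protein, had 1.13 and 2.26 TPM at day 8 and 0.377 and 0.429 TPM at day 0 in the knockout, and 36.1 TPM at day 8 and 0.0681 TPM at day 0 in wild type (difference -6.62, adjusted p = 0.0346). Myl4, an atrial and fetal myosin light chain, had 6.45 and 7.65 TPM at day 8 and 14.7 and 8.05 TPM at day 0 in the knockout, and 51.7 TPM at day 8 and 2.33 TPM at day 0 in wild type (difference -4.59, adjusted p = 0.0290). The differences of Rbp4, Fosb, Nol4l and Tmem108 were -4.97, -5.04, -4.58 and -4.14 (adjusted p = 0.0225, 0.0394, 0.0233 and 0.0355). The cardiac list had 3 of 24 members with a negative difference and none with a positive one.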

How the data were processed

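PolyA+ RNA libraries were prepared from Trizol-extracted RNA per the labels' protocols. The authors deposited counts per gene and TPM values per gene for each library. The submitters' processing notes name HISAT2 2.0.5, StringTie 1.3.3b and the build mm10; the options, annotation, use of strand and the step that made the counts are not given in the sources used here. All 49326 named identifiers of the count table matched GENCODE M21 gene names; 259 entries per library with no gene name (0.0242% to 0.0398% of counts) were left out. The deposited counts were tested with edgeR 4.0.16 (R 4.3.3, TMM scaling, quasi-likelihood F test, two-sided, Benjamini-Hochberg) in 1 fit of 9 libraries with a mean per genotype and day, over 24794 genes with at least 0.0791 CPM in 2 libraries. Residual degrees of freedom were 3, prior degrees 3.12 and the common biological coefficient of variation 0.348. TPM values are shown as deposited. Changes within a line are differences of log2 CPM with a prior count of 2. Total counts ran from 54218051 to 184952442. Each SE was back-calculated as the absolute log2 change over the square root of F, and is not a separate estimate. Intervals are at the 95% level and use this SE with a t quantile. Bounds at a floor of 3 counts cover counting error only.

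The members of the comparison, the 43 gene lists and the genes named were chosen with earlier results of these data known. Named genes are 14 core genes, the 12 largest rises and falls among called protein-coding genes with at least 5 CPM, and up to 4 called members per list (the 2 most abundant members where none was called). Added to these are up to 8 genes each way that came back (at least 10 TPM at their extreme) and the 6 largest differences each way. Differences were ranked among protein-coding genes past that test, without predicted names, with a mean of at least 5 CPM in the knockout at day 8 or day 0. Genes high only in wild type could not enter that ranking. Markers and genes said to be chosen later come on top. 1 gene is not reported here. Of 160 named genes (4 chosen later; other genes given only as markers or as values not past the test left aside), 74 overlap another annotated gene and are uncertain, as no source says that counting used strand. Promoter sequences are from RefSeq (GRCm38.p6, 32851 entries, 250 bases before the start searched on both strands, first entry shown). G6 and H8 pair the libraries as the same cell lines: deviations of same-line libraries from their group means correlated at 0.196 for days 0 and 4, 0.135 for days 0 and 8 and 0.367 for days 4 and 8 over 15732 genes. Alternatives were DESeq2 1.42.0, limma 3.58.1 on voom weights and on log2 TPM with pseudocounts of 0.1 and 1, other scalings, filters and library sets, the line as a block, a log2 minimum of 1, and leaving out each library.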

Additional observations from a re-analysis of the deposited data

Results flagged for a closer look

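The results listed here differed between knockout and wild type in the test of the difference itself, as the net log2 change of knockout minus that of wild type; wild type has 1 library a day. The difference was positive for 931 genes and negative for 235, pseudogenes included, and for 231 and 64 with protein-coding genes alone. Among pluripotency and epiblast genes it was 2.23 for Pou5f1, 2.29 for Sox2, 1.79 for Zfp42, 2.09 for Esrrb, 2.39 for Tdgf1, 2.04 for Utf1, 2.86 for Gdf3 and 4.44 for Pim2, and it was 4.93 for Wnt8a.

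Interferon-stimulated genes gave 9.22 for Gbp2, 10.13 for Gbp2b, 8.96 for Gbp3, 7.61 for Gbp7, 5.39 for Oas2, 2.69 for Ifitm3, 8.62 for Ifih1 and 14.78 for Mx2, whose fitted value rests on knockout stem cell libraries with no count and is no measure of size. Antigen processing genes gave 6.58 for Psmb8, 2.94 for Erap1, 4.51 for Tap2 and 2.17 for H2-Q4.

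Other positive differences were 7.58 for Gadl1, 6.66 for Zfp36l3, 2.98 for Rhox9, 5.65 for Gm8300, 2.14 for Stmn2, 2.47 for H2-M5, 1.29 for Kat6b, 2.48 for S100a6, 11.94 for Piwil4 and 11.24 for Klhdc7a. Negative differences were -1.72 for Lifr, -5.01 for Rn7s1, -4.97 for Rbp4, -5.04 for Fosb, -1.41 for Cyp51, -6.62 for Frem1, -4.59 for Myl4, -4.58 for Nol4l and -4.14 for Tmem108. The Y-linked genes gave -9.95 for Eif2s3y, -10.42 for Ddx3y and -9.86 for Uty, fitted against day 8 libraries with no count.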

How the results depend on the processing

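Counts of calls depended on the method, and directions did not among the 127 named genes called. Gained and lost genes numbered 2799 and 1735 with DESeq2, 458 and 230 over protein-coding genes alone, 558 and 153 with the 4 libraries alone, and 883 and 319 with these 4 and the replicate block; 752 and 808 were lost on log2 TPM with pseudocounts of 0.1 and 1. With the replicate block over all libraries they numbered 1532 and 566, of which 1694 genes were also called without it; among named genes it ended the calls of Dppa3, Prdm6, Airn, Zim1, Ereg, Etv2, Dcx, Gdf15, Ccnb1, Hspe1 and Cox7c, added that of Zfp42 and changed no other. Leaving out 1 library gave 414 to 1543 gained and 49 to 699 lost. With DESeq2 127 of the 127 named genes kept the call, with voom weights 105, on log2 TPM + 1 101, with the replicate block 116 and with the 4 libraries alone 60. The share gained among called genes was 75%, against 61.7% with DESeq2 and 91.7% without the G6 library of day 8, and 70.4% to 78.7% under other scalings.

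Genes that rose and came back numbered 245 with DESeq2, 76 with voom weights, 28 with a filter of 1 CPM, 15 with knockout libraries only, 4 and 31 on log2 TPM + 0.1 and + 1, 20 over protein-coding genes and 18 with the replicate block, and 0 to 26 with 1 library left out. Genes that fell and came back numbered 267, 65 and 33 with DESeq2, voom weights and 1 CPM, 24 over protein-coding genes, 31 with the replicate block, and 0 to 33 with 1 library left out. Positive and negative differences from wild type numbered 2396 and 1489 with DESeq2 and 231 and 64 over protein-coding genes, with 820 negative on log2 TPM + 1, 1036 and 323 with the replicate block, and 0 to 1647 and 0 to 524 with 1 library left out.

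The net log2 changes of Hnrnpll, Sox2, Vim and Hmga1, none of them past the test, changed sign in some fits. Hnrnpll ranged from -0.05 to 0.97 with 1 library left out and was lowest without the H8 library of day 0. Sox2 was at -0.033 with DESeq2 and with RLE scaling and at -0.022 with the 1 CPM filter, and ranged from -0.156 to 0.187 with 1 library or line left out, below 0 without the G6 library of day 0 (-0.018), that of day 8 (-0.116) or both. Vim ranged from -1.961 to 0.26 and was above 0 without the G6 library of day 8. Hmga1 ranged from -0.292 to 0.03 and was above 0 without the H8 library of day 8. For each of these the cause was not tested. Leaving out a whole line leaves 1 library a day and no residual degrees of freedom, so it gives values with no test, and no difference could be fitted with either the day 0 or the day 8 wild-type library left out. Low counts in the day 0 knockout libraries fell on multiples of 4 more often than in other libraries, which limits what low levels there can show.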

Other observations

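Some entries outside the named genes had marked levels and are given as values only; all were chosen after their values were seen. The predicted gene Gm45717 was measured at 0.739 and 0.198 TPM at day 0, 306 and 349.9 TPM at day 4 and 0.334 and 0.985 TPM at day 8 in the knockout lines, and at 289, 287 and 418 TPM in wild type at the same days. The clone-named gene AC157931.1 had 3.65 and 4.96 TPM at day 0, was listed at 0 in both day 4 libraries and had 3.99 and 5.33 TPM at day 8. In the knockout, these entries were thus on opposite sides at day 4 while day 8 and day 0 lay close.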
